A study of Mus musculus with 6 samples.

Results

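The signalling chains and co-receptors of the B cell and T cell antigen receptors were examined as 9 named genes of the 23997 gene symbols in each library. They were chosen by name: *Cd79a*, *Cd79b*, *Ms4a1* and *Cd22* for B cells, and *Cd3d*, *Cd3e*, *Cd3g*, *Lck* and *Zap70* for T cells. All 9 were found. The samples were 6 gastrocnemius muscles, the large calf muscle, from untreated 21-day-old mice, 1 RNAseq library per mouse. The HrasG12V group held mice 2276, 2278 and 2279, of genotype HrasG12V/+ (Caggs-Cre+/HrasG12V/+). The WT group held their littermates 2277, 2280 and 2281, of genotype Hras+/+ (Caggs-Cre-/HrasflG12V/+), so n = 3 mice per genotype. WT mice therefore carried the floxed allele without Cre, and the effects of the mutation and of the transgene cannot be told apart. Caggs-Cre is driven by a promoter active in most tissues, so recombination was not limited to muscle fibers, and lymphocytes of HrasG12V mice can carry the mutant allele as well. Per the methods, the breeders' mixed background included SWR/J, C57BL/6J and 1 other strain. The labels give neither sex nor litter.

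A B cell recognises antigen with a membrane immunoglobulin that has almost no cytoplasmic tail. It signals through a heterodimer of Cd79a and Cd79b, whose tails carry tyrosine motifs that are phosphorylated by Src family kinases and then bind Syk. Ms4a1 is the B cell membrane protein targeted by anti-B-cell antibodies in the clinic, and Cd22 is a sialic acid-binding co-receptor that recruits phosphatases and restrains the signal. T cells use the same plan: the clonotypic receptor is assembled with Cd3d, Cd3e and Cd3g, the kinase Lck phosphorylates their tyrosine motifs, and Zap70, a relative of Syk, docks on the phosphorylated motifs. Skeletal muscle fibers express none of these complexes in the textbook view, and resident lymphocytes are few in healthy muscle. Lymph nodes, by contrast, hold B cell follicles, T cell zones and a stroma of their own, including high endothelial venules through which lymphocytes enter.

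Levels are given in FPKM, mapped fragments scaled to transcript length and to sequencing depth, as the authors obtained them with Cuffnorm, which scales libraries to each other. FPKM is a level per length, so values of different genes can be set side by side. The sum of FPKM ran from 413020 to 814013 per library and is not a depth, since the median over the genes tested was 6.39 to 6.64 in every library. Without read counts the counting error behind a low FPKM is unknown. Mouse 2276 correlated more with the WT mice (Pearson's r of log2 values across genes 0.893 to 0.903) than with HrasG12V mice 2278 (0.844) and 2279 (0.852). The muscle genes *Mylpf*, *Pvalb* and *Tnni2* were at 5442 FPKM or more in every library, so defining markers of the labelled tissue were present. Another 3 of the 10 muscle genes looked up, *Acta1*, *Myh4* and *Atp2a1*, were listed at 0 in all 6 libraries, and *Ckm*, *Tnnt3* and *Myh1* were listed at 0 in some libraries and were high in others (these 3 were named after their values were seen). A value listed at 0 for a highly expressed gene can therefore be a failed estimate. Whether this also holds for *Ms4a1*, listed at 0 in mouse 2276 and at 0.0226 to 0.133 FPKM in WT mice, was not tested. *Hras* was at 58.8, 28.9 and 16.0 FPKM in HrasG12V mice 2276, 2278 and 2279, whereas WT mice 2277, 2280 and 2281 had 36.8, 36.0 and 51.8 FPKM. FPKM sums both alleles and does not show the mutation.

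The B cell genes were high in mice 2278 and 2279 and close to the floor in the other 4 libraries. *Cd79a*, the alpha chain of the signalling heterodimer, was at 26.4 and 20.9 FPKM in mice 2278 and 2279 and at 0.161 FPKM in the third HrasG12V mouse, 2276. In WT mice 2277, 2280 and 2281 it was at 0.163, 0.367 and 0.120 FPKM. The lower of the high values was 56.8 times the highest of the other 4. *Cd79b*, the beta chain, was at 18.9 and 16.0 FPKM in mice 2278 and 2279, at 1.06 FPKM in mouse 2276 and at 0.363, 0.486 and 0.345 FPKM in the WT muscles. For this gene mouse 2276 was above all WT mice, 2.67 times their mean, while its partner *Cd79a* in the same library was within the WT range. *Cd79b* lies on chromosome 11 (GRCm38, 106311341 to 106314762, minus strand), 3829 bases downstream of the muscle sodium channel gene *Scn4a* on the same strand. *Scn4a* was at 76.3, 65.4 and 97.7 FPKM in mice 2276, 2278 and 2279, and WT muscles held 86.9 to 111 FPKM. Its part in the level of *Cd79b* was not tested.

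*Ms4a1* was at 10.6 and 7.10 FPKM in mice 2278 and 2279, was listed at 0 in mouse 2276 and was at 0.0795, 0.133 and 0.0226 FPKM in the WT muscles. *Cd22* was at 7.82 and 6.31 FPKM in mice 2278 and 2279, at 0.0449 FPKM in mouse 2276 and at 0.132, 0.119 and 0.0928 FPKM in the WT muscles. For both genes mouse 2276 was below every WT mouse. Within mice 2278 and 2279 the order of the B cell genes was the same, with *Cd79a* highest and *Cd22* lowest. The ratio of *Cd79a* to *Cd79b* was 1.40 and 1.31 in these mice, against 0.347 to 0.756 in WT mice and 0.151 in mouse 2276, where both levels were too low for a firm ratio.

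The T cell genes divided the libraries in the same way, at a lower summed level in mice 2278 and 2279. *Cd3e* was at 6.26 and 9.09 FPKM in mice 2278 and 2279, at 0.225 FPKM in mouse 2276 and at 0.241, 0.151 and 0.304 FPKM in the WT muscles. *Cd3g* was at 6.38 and 7.79 FPKM in mice 2278 and 2279, at 0.124 FPKM in mouse 2276 and at 0.0782, 0.101 and 0.0892 FPKM in the WT muscles. *Cd3d* had the smallest gap of the 9 genes, at 3.45 and 4.05 FPKM in mice 2278 and 2279, 0.422 FPKM in mouse 2276 and 0.407, 0.217 and 0.234 FPKM in the WT muscles. Even there the lower of the high values was 8.18 times the highest of the other 4. The CD3 genes form a cluster on chromosome 9 of GRCm38. *Cd3g* (44969572 to 44980431, minus strand) and *Cd3d* (44981786 to 44987339, plus strand) are transcribed away from each other across a gap of 1354 bases, and *Cd3e* (44998740 to 45009627, minus strand) follows 11400 bases further on.

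The kinases followed the CD3 chains. *Lck*, the Src family kinase of T cells, was at 6.58 and 9.50 FPKM in mice 2278 and 2279, at 0.123 FPKM in mouse 2276 and at 0.0542, 0.0855 and 0.0503 FPKM in the WT muscles. *Zap70* was at 1.94 and 3.68 FPKM in mice 2278 and 2279, at 0.205 FPKM in mouse 2276 and at 0.126, 0.122 and 0.0641 FPKM in the WT muscles, the lowest of the 9 genes in both high libraries. Mouse 2276 was above all 3 WT mice for *Lck*, *Zap70*, *Cd3g*, *Cd3d* and *Cd79b*, by at most 2.67 times the WT mean. Over the 9 genes, mouse 2278 stood 12.1 to 136 times and mouse 2279 14.2 to 150.1 times above the WT mean. In WT mice every value of the 9 genes was below 0.5 FPKM. Since these are whole muscles, more lymphocytes and more RNA per lymphocyte cannot be told apart.

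**Figure D1:**
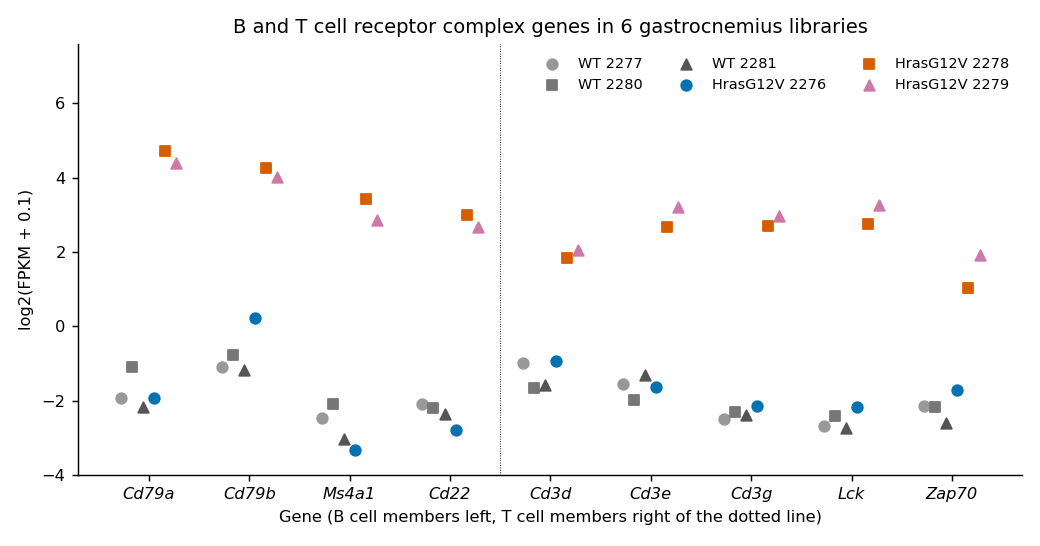
Level of the 9 genes in each library, as log2(FPKM + 0.1), 1 point per mouse. For all 9 genes the squares and triangles of HrasG12V mice 2278 and 2279 sit above the other 4 libraries, and HrasG12V mouse 2276 sits near the 3 WT mice, with *Cd79b* at 1.06 FPKM as its highest value.

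The windows around the transcription starts of the 9 genes were searched for letters bound by lymphocyte transcription factors. The part of these letters in the pattern across libraries was not tested. RefSeq windows on GRCm38.p6, from 250 bases before to 50 bases after a start, were at hand for 7 of the 9 genes, 10 windows in all, and not for *Cd79b* and *Ms4a1*. The letters were CAGGTG (an E-box read by E proteins), ACTTCC (an Ets site), GAGGAAGT (a PU.1 site, which contains the complement of ACTTCC), ATGCAAAT (the octamer) and CCCNNGGG (the core of an EBF site), on both strands. CAGGTG occurred in 9 of the 10 windows and in at least 1 window of all 7 genes, against 20.2% of all 32851 windows and 22.6% of all genes with a window. ACTTCC occurred for 5 of the 7 genes, against 26.5% of all genes. CCCNNGGG occurred for *Cd22* and *Zap70* (15.4% of all genes), and the octamer (1.97% of all genes) and the PU.1 letters (3.69%) for none. A match describes these letters only, and does not show binding. The windows of *Cd79a*, the highest of the 9 in mice 2278 and 2279 (*Cd79b* or *Cd3d* was highest in the other 4 libraries), and of the CD3 cluster are shown 5′ to 3′ on the gene's strand, with CAGGTG and ACTTCC or their complements in capitals.
Cd79a, chr7:24897247-24897546, plus strand: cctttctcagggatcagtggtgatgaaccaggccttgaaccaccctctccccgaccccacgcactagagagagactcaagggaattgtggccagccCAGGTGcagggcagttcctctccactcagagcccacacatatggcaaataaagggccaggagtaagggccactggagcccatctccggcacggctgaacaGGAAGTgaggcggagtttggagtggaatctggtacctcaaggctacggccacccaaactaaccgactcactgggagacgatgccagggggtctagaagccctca
Cd3g, chr9:44980382-44980681, minus strand: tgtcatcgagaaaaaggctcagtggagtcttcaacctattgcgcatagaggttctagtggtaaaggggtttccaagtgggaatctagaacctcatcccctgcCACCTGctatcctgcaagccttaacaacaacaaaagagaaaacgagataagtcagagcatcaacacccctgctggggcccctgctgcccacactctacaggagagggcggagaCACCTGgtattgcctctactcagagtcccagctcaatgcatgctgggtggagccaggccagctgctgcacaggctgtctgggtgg
Cd3d, chr9:44981536-44981835, plus strand: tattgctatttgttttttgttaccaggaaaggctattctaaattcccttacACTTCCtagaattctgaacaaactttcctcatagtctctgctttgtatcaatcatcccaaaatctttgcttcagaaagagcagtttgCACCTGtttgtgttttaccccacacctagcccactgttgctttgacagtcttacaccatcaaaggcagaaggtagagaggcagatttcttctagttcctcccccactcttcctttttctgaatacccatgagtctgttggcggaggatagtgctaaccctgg
Cd3e, chr9:45009562-45009861, minus strand: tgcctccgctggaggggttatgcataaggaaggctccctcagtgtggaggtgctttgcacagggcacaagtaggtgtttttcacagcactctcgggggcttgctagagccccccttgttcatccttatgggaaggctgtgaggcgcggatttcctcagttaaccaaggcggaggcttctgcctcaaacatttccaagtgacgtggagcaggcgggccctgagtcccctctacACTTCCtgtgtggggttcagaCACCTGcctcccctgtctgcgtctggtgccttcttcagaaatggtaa
The *Cd3g* window holds the E-box letters at 2 places and no Ets letters, and the other 3 windows hold each of them at 1 place.

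The genotypes were compared with limma on log2(FPKM + 0.1) over 13359 genes with a mean of at least 0.5 FPKM. All 9 genes passed this filter, but only through the HrasG12V group, since the WT mean was at most 0.398 FPKM. For 8 of them, all but *Cd79b*, the mean over the other 4 libraries was also under the filter. Their counts below are therefore a description, because a gene that passes in this way has to differ. *Cd79b* averaged 11.98 ± 9.57 FPKM (SD, n = 3) in the HrasG12V group and 0.398 ± 0.0765 FPKM (SD, n = 3) in the WT group. Its log2 fold change was 3.84, with a standard error of 1.03, a 95% interval of 1.37 to 6.32 and a limma adjusted p of 0.382. *Cd79a* averaged 15.8 ± 13.8 against 0.217 ± 0.132 FPKM (SD, n = 3 each), and its log2 fold change was 4.13 ± 1.72 (standard error), at a limma adjusted p of 0.491. For *Lck* the means were 5.40 ± 4.80 and 0.0633 ± 0.0193 FPKM (SD, n = 3 each) and the log2 fold change was 3.90 ± 1.39 (standard error), at a limma adjusted p of 0.469. The log2 fold changes of *Cd3g*, *Ms4a1*, *Cd22*, *Cd3e*, *Zap70* and *Cd3d* were 3.57, 3.52, 3.18, 3.03, 2.72 and 2.39, with limma adjusted p-values between 0.454 and 0.545. In all 9 genes the SD among HrasG12V mice was large beside their mean.

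Before adjustment, 7 of the 9 genes were higher in HrasG12V with a limma p below 0.05, against 5.18% of all genes tested. *Ms4a1* and *Cd22*, the genes for which mouse 2276 lay below the WT mice, did not pass (limma p of 0.0846 and 0.0741 before adjustment over all genes). After adjustment over all genes 0 of the 9 passed, as did 0.0599% of all genes in either direction. Every HrasG12V mouse was above every WT mouse for 5 of the 9 (*Cd79b*, *Cd3d*, *Cd3g*, *Lck* and *Zap70*), against 8.11% of all genes, and for 2 of the 9, against 5.67% of all genes, once each library was rescaled to the same total FPKM. An exact permutation test of 3 mice against 3 cannot give a two-sided p below 0.1. The median log2 fold change was 3.68 for the 4 B cell genes and 3.03 for the 5 T cell genes, and -0.03 over all genes tested.

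The genotype comparison changed with the mice included. Without mouse 2276, all 9 genes were higher with a limma adjusted p below 0.05, against 5.37% of all genes, and the log2 fold changes ran from 3.35 (*Cd3d*) to 6.30 (*Cd79a*). Without mouse 2278 or without mouse 2279, 1 of the 9, *Cd79b*, had an unadjusted p below 0.05, against 9.69% and 11.5% of all genes in either direction. The same single gene was left without WT mouse 2280 or 2281 (5.31% and 4.54% of all genes), and without WT mouse 2277 there were 2, *Cd79b* and *Cd3d* (4.75% of all genes). Without both mice 2278 and 2279 the HrasG12V group was mouse 2276 alone, whose spread was assumed to equal that of the WT mice. Then *Cd79b* (log2 fold change 1.23, limma adjusted p = 0.0314) was the only one of the 9 that was higher with an unadjusted p below 0.05, against 25.5% of all genes. The log2 fold change turned negative for *Cd79a* (-0.20), *Cd22* (-0.56), *Ms4a1* (-0.79) and *Cd3e* (-0.0048). Of these, *Cd22* was lower with a limma p of 0.0231 before adjustment over all genes and 0.0633 after it.

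**Figure D2:**
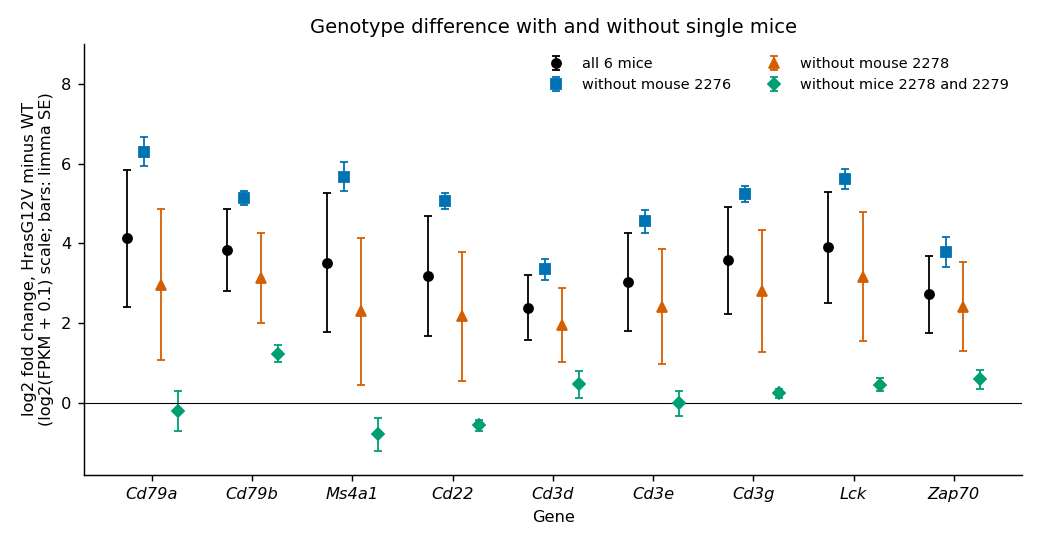
Log2 fold change of each gene, HrasG12V minus WT, on the log2(FPKM + 0.1) scale, with the limma standard error as bars, for all 6 mice and after leaving out the mice named. Without mouse 2276 the values lie between 3.35 and 6.30, and without mice 2278 and 2279 they lie between -0.79 and 1.23.

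In mice 2278 and 2279 the 9 genes spread from the lower to the upper part of the range of all genes tested. *Cd79a* was at the 84.3rd percentile of the 13359 genes in mouse 2278 and at the 79.6th in mouse 2279, against the 2.43rd to 3.26th in WT mice and the 2.87th in mouse 2276. *Cd79b* was at the 78.5th and 74.2nd percentiles in mice 2278 and 2279 and at the 15.5th in mouse 2276. *Zap70* was the lowest, at the 18.6th and 33.1st percentiles, against the 2.06th to 2.19th in WT mice. The sum over the 4 B cell genes was 63.8 and 50.3 FPKM in mice 2278 and 2279, 1.27 FPKM in mouse 2276 and 0.581 to 1.10 FPKM in WT muscles. The sum over the 5 T cell genes was 24.6 and 34.1 FPKM, 1.10 FPKM, and 0.677 to 0.906 FPKM.

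The balance between B and T cell genes differed between the high libraries. All 4 B cell genes were higher in mouse 2278 than in mouse 2279, by 1.18 (*Cd79b*) to 1.498 times (*Ms4a1*). All 5 T cell genes were lower in mouse 2278, at 0.527 (*Zap70*) to 0.853 (*Cd3d*) of the level in mouse 2279. Among all genes tested, 48.2% were higher in mouse 2278 than in mouse 2279. The ratio of the summed B cell to the summed T cell genes was 2.59 in mouse 2278 and 1.47 in mouse 2279. The same order held in most of the other B and T cell genes looked up. Of 30 further B cell genes tested, 25 were higher in mouse 2278, and of 24 further T cell genes tested, 18 were lower there. A higher level in mouse 2278 was not particular to B cell genes. It was also seen for all 8 macrophage, all 8 neutrophil and all 7 erythroid genes found, and for 6 of 7 adipocyte genes. By contrast, 8 of the 9 lymph node stroma genes were lower there. The co-receptors *Cd4* and *Cd8a*, picked after their values were seen, were in nearly the same proportion in both mice, with a *Cd4* to *Cd8a* ratio of 1.41 in mouse 2278 and 1.40 in mouse 2279. These are values of 1 library each, with no replicate behind the difference.

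**Figure D3:**
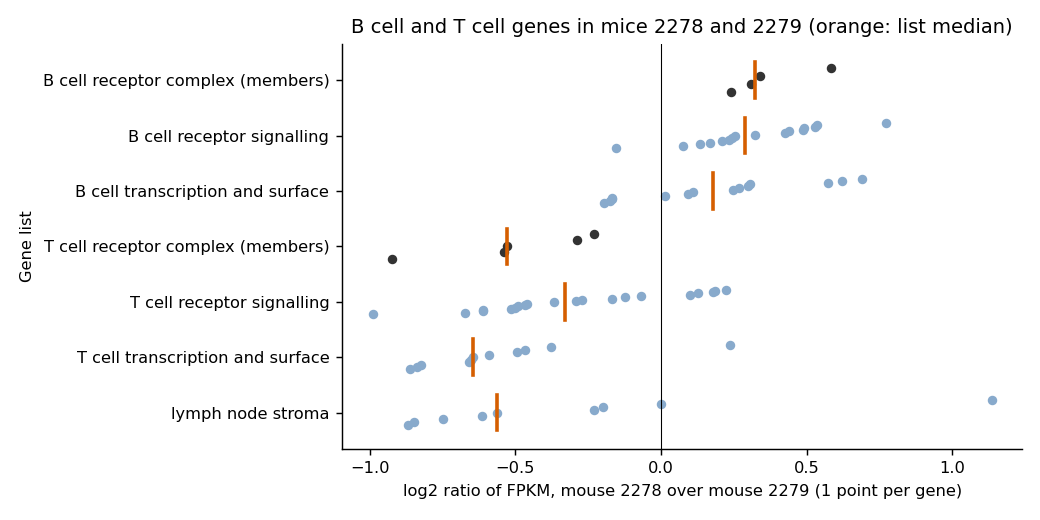
Log2 ratio of FPKM in mouse 2278 over mouse 2279, 1 point per gene, by gene list, with the list median as an orange line. The 4 B cell receptor genes lie to the right of 0 and the 5 T cell receptor genes to the left, as do 8 of the 9 lymph node stroma genes.

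Other genes of both receptor pathways were taken from 4 lists: B cell receptor signalling, B cell transcription and surface, and the same for T cells. All 61 genes were found and 54 passed the filter. Of these 25 were higher in HrasG12V with an unadjusted limma p below 0.05 (5.18% of all genes tested), 0 were lower, and 0 passed after adjustment, with a median log2 fold change of 2.60. Counts over these lists are a description, since genes such as *Il7r* (WT mean 0.150 FPKM) passed the filter only through mice 2278 and 2279. Mice 2278 and 2279 were the 2 highest libraries for 50 of the 54 genes, against 14.9% of all genes tested. The exceptions were *Cd81*, *Cd72*, *Plcg1* and *Prkcq*. *Cd81*, a tetraspanin that most cell types make, was at 103 to 112 FPKM in WT muscles and at 130.2, 91.2 and 78.9 FPKM in mice 2276, 2278 and 2279. *Prkcq*, a T cell kinase that muscle fibers also make, was at 28.6 to 35.4 FPKM in WT muscles and at 37.0, 21.6 and 42.8 FPKM in the HrasG12V mice. *Cd72*, a B cell inhibitory receptor, differed from the 9 genes in that mouse 2276 was also high. It was at 6.13, 6.88 and 5.77 FPKM in mice 2276, 2278 and 2279, while WT muscles held 3.08 to 3.29 FPKM, for which the log2 fold change was 0.95 ± 0.14 (standard error), at a limma adjusted p of 0.261.

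Most surface and transcription factor genes of both lineages followed the high libraries. *Cd37*, a tetraspanin of mature lymphocytes, was at 21.5 and 24.3 FPKM in mice 2278 and 2279 against 1.04 to 1.91 FPKM in the other 4. *Cd74*, the invariant chain of class II antigen presentation, was at 185 and 120.3 FPKM against 21.9 to 28.7 FPKM. *Tcf7*, a transcription factor of naive T cells, was at 9.01 and 12.7 FPKM against 0.480 to 0.611 FPKM, and *Il7r*, the receptor that sustains them, at 5.01 and 7.83 FPKM against 0.0942 to 0.207 FPKM. By contrast *Ebf1*, a B cell transcription factor that fat and stromal cells also make, was at 4.67 to 8.13 FPKM in the other 4 libraries and at 9.36 and 8.77 FPKM in mice 2278 and 2279. Immunoglobulin and T cell receptor constant chains, 9 symbols, were not analysed here.

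Genes of lymph node stroma were high in the same libraries. *Glycam1*, a mucin made by high endothelial venules, was at 192 and 294 FPKM in mice 2278 and 2279, at 0.186 FPKM in mouse 2276 and at 0.0537 to 0.242 FPKM in WT muscles. *Ccl19* and *Ccl21a*, chemokines of the T cell zone, were high there too. *Ccl19* reached 25.3 and 45.6 FPKM against 0.738 to 1.99 FPKM in the other 4 libraries, and *Ccl21a* 21.0 and 24.7 FPKM against 1.38 to 5.81 FPKM. For all 9 stroma genes these mice were the 2 highest libraries, against 14.9% of all genes tested. The gap was small for *Lyve1* and *Prox1*, named after their values were seen. *Lyve1* was at 10.2 and 4.63 FPKM against 1.93 to 3.86 FPKM in the other 4 libraries, and *Prox1* at 1.51 and 2.23 FPKM against 0.373 to 1.03 FPKM. The summed level of the list was 266 and 389 FPKM in mice 2278 and 2279, 9.27 FPKM in mouse 2276 and 6.33 to 12.7 FPKM in WT muscles. Most of the sum in mice 2278 and 2279 was *Glycam1*. Of the 8 genes tested, 4 had an unadjusted limma p below 0.05 for a higher level in HrasG12V (5.18% of all genes tested). As for the 9 genes, this count is a description: *Glycam1* and *Cxcl13*, among the 4, and *Chst4* and *Fut7*, not among them, passed the filter only through mice 2278 and 2279 (the last 3 were named after their values were seen). The part of lymph node tissue in the differences between genotypes was not tested.

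Markers of other cells were looked up beside the 9 genes. Genes of lymphocyte precursors, which mark thymus and bone marrow, were low in every library apart from *Arpp21* (5.78 to 20.6 FPKM, highest in mouse 2276). *Rag1*, a recombinase of precursors named after its values were seen, was at 0.382 and 0.124 FPKM in mice 2278 and 2279 against 0 to 0.0103 FPKM in the other 4. *Igll1*, a surrogate light chain of B cell precursors, was at 0.570 and 0.0865 FPKM against 0 to 0.0802 FPKM. *Ptcra* was at 0.229 and 0.392 FPKM in mice 2278 and 2279 against 0.140 to 0.252 FPKM in the other 4, and *Rag2* at 0.112 and 0.0267 FPKM against 0 to 0.0226 FPKM. *Bcl6*, a transcription factor of germinal centre B cells that other tissues also make, was lower in mice 2278 and 2279, at 22.05 and 28.6 FPKM, than in the other 4, at 41.3 to 57.0 FPKM. Neutrophil genes moved with the 9 genes, with a summed level of 138 and 54.4 FPKM in mice 2278 and 2279 and 0.815 to 4.01 FPKM in WT muscles, and 21.2 FPKM in mouse 2276. In mouse 2276 that sum was mostly *S100a8* (9.06 FPKM) and *S100a9* (10.1 FPKM), with *Ngp* at 0.415 FPKM and *Elane* at 0.0380 FPKM. Every HrasG12V mouse was above every WT mouse for 5 of the 6 neutrophil genes tested, against 8.11% of all genes. This count too is a description, because genes such as *Ngp* (WT mean 0.0707 FPKM) passed the filter only through the HrasG12V group. For 7 natural killer cell genes the sum was 8.28 and 10.1 FPKM in mice 2278 and 2279 against 0.295 to 0.440 FPKM in the other 4. The 7 dendritic cell genes summed to 14.6 and 18.3 FPKM in mice 2278 and 2279 against 2.52 to 4.67 FPKM in the other 4. Among them *Ccl22*, a chemokine of dendritic cells, was at 4.68 and 9.55 FPKM against 0.0191 to 0.165 FPKM, while *Zbtb46*, a transcription factor that endothelial cells also make, was at 2.92 and 2.70 FPKM against 1.48 to 3.24 FPKM. Of 7 adipocyte genes, 2 were higher with an unadjusted limma p below 0.05 (5.18% of all genes tested). *Adipoq*, a fat cell hormone, was at 36.9 and 28.7 FPKM in mice 2278 and 2279, at 8.40 FPKM in mouse 2276 and at 2.88 to 13.7 FPKM in WT muscles. The 8 macrophage genes summed to 117 and 63.9 FPKM in mice 2278 and 2279, 86.5 FPKM in mouse 2276 and 57.4 to 69.9 FPKM in WT muscles. Erythroid genes summed to 1488 and 601 FPKM, 1974 FPKM and 657 to 764 FPKM, so mouse 2276 was the highest. The share of each of these cell types in the pattern of the 9 genes was not tested.

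**Figure D4:**
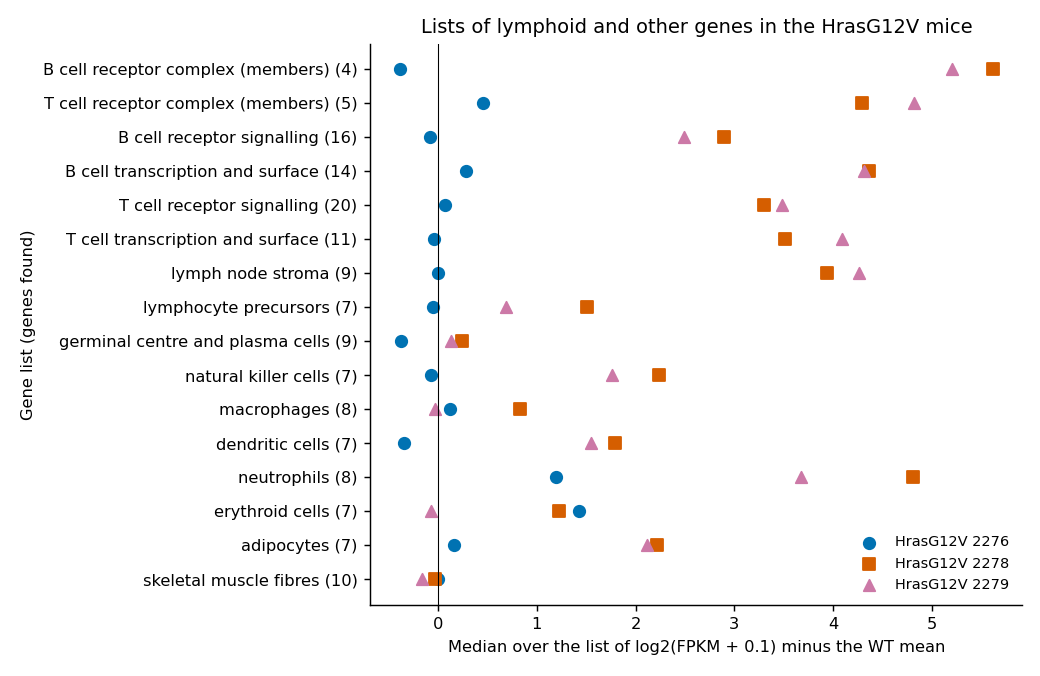
Median over each gene list of log2(FPKM + 0.1) minus the WT mean, 1 point for each HrasG12V mouse. For the B and T cell lists and lymph node stroma mouse 2276 lies between -0.38 and 0.46 and mice 2278 and 2279 between 2.49 and 5.61, while for neutrophils mouse 2276 is at 1.20 and for erythroid cells at 1.43.

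The genes most like the mean of the 9 were ranked by Pearson's r of log2(FPKM + 0.1) over the 6 libraries, among 12072 genes with a mean of at least 1 FPKM outside all lists. With 2 high and 4 low libraries such r mostly record that division, and they are given without a test. The members themselves had r of 0.985 to 0.999 with their mean. The most alike were *Il2rg*, the common gamma chain of interleukin receptors (r = 0.999, 19.6 and 20.1 FPKM in mice 2278 and 2279 against 3.30 to 3.71 FPKM in the other 4), and *Il21r* (r = 0.999, 5.28 and 4.94 FPKM against 0.0598 to 0.113 FPKM). *Itgal*, a leukocyte integrin chain, *Rac2*, a small GTPase of blood cells, and *Dennd1c* were also among the 10. The other 5 were short RNA genes listed at 0 in the other 4 libraries, *Snord53*, *Mir7036b*, *Mir7001*, *Mir343* and *Mir6976*. For the B cell genes alone the 5 most alike were *Dock2*, *H2-Ob*, *Itgb2*, *Lcp1* and *Ptk2b*. *H2-Ob*, a class II chain of B cells, was at 13.5 and 9.74 FPKM in mice 2278 and 2279 against 0.222 to 0.302 FPKM. For the T cell genes alone they were *Rinl*, *Sept1*, *Shkbp1*, *Rasal3* and *A430078G23Rik*. *Rasal3*, a Ras GTPase-activating protein of hematopoietic cells, was at 4.42 and 5.62 FPKM against 0.0646 to 0.0959 FPKM.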

How the data were processed

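RNA of gastrocnemius muscle was sequenced in 1 library per mouse, 3 HrasG12V and 3 WT. Per the labels and the methods, stranded mRNA libraries were read as single ends, mapping was done in TopHat and quantification in Cufflinks and Cuffnorm as FPKM, which the authors deposited as 1 value per gene symbol and library. The labels name GRCm38 and mm10, and no versions of the tools were stated. Ratios of low values between libraries did not pile up at steps worth 1 read (the fullest interval held 0.920% to 4.92% of the genes of a pair), so reads could not be recovered and count models were left out.

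Here log2(FPKM + 0.1) was computed, genes with a mean of at least 0.5 FPKM were kept (13359 of 23997), and the comparison between genotypes used limma 3.58.1 under R 4.3.3 (trended empirical Bayes, Benjamini-Hochberg adjustment over all genes tested, limit 0.05, no covariate), tested on simulated data beforehand. The labels do not say whether mice shared a cage or litter, so p-values measure the spread between these mice. Members and gene lists were chosen with earlier results of these data known. Genes named were drawn from the members, the 3 highest and the lowest of each list, and the 10 (5 for B or T cell genes alone) most like the members, beside those said to be chosen later, *Hras* and *Scn4a*. Positions came from GENCODE vM21 (GRCm38), promoter windows from RefSeq (GRCm38.p6). Alternatives changed the pseudocount, filter, normalization, moderation, weights and the mice used. With mice left out the genes tested were those of the full fit. Tables and figures used Python 3.11.15 with pandas 2.3.3, matplotlib 3.10.9 and numpy 2.4.6. Results for 3 single genes of the lists are not reported here.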

Additional observations from a re-analysis of the deposited data

How the results depend on the processing

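With all 6 mice, 7 of the 9 genes had an unadjusted limma p below 0.05, 0 an adjusted p below 0.05, and 5 did not overlap between genotypes. Without moderation the first count was 1 (9.86% of all genes called). With array weights the second was 9, while the share of all genes called went from 0.0599% to 4.28%. With the same total FPKM in each library the first was 4 and the third 2 (5.33% and 5.67% of all genes). Leaving out single mice, the counts ran from 1 to 9, from 0 to 9 and from 5 to 9, and each 9 came without mouse 2276 (29.8%, 9.66% and 19.9% of all genes). Without mice 2278 and 2279 the first count was 2 and the second 1 (47.2% and 31.4% of all genes in either direction), and the log2 fold changes of *Cd79a*, *Ms4a1*, *Cd22* and *Cd3e* turned to -0.20, -0.79, -0.56 and -0.0048. In that fit the only HrasG12V mouse is 2276, so its construction accounts for the change. In the other fits the log2 fold change of every one of the 9 genes was positive. Mapped read counts per library were not used here, so levels below 0.5 FPKM cannot be ranked with confidence. No paired analysis was possible because the labels give no litter and no replicate number shared by mice of both genotypes.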
